A study of Mus musculus with 4 samples.

Results

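The serpins are a family of protease inhibitors and related proteins, here every gene whose symbol in the array's annotation is Serpin followed by a clade letter from a to i and a number. The annotation held 46 such symbols among the 18194 genes measured. Of these, 40 had a probe set that names 1 gene, and these 40 genes are described below. The other 6 symbols (Serpina1a, Serpina1d, Serpina1e, Serpinb9e, Serpinb9f and Serpinb9h) appeared on probe sets annotated to several copies, which name no gene. The 40 genes were read by 56 probe sets, and 3 further probe sets were shared by several genes. Of these 59 probe sets, 20 end in _x_at, _s_at or _a_at and can bind related transcripts.

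Liver and duodenum came from wild-type animals and from a transgenic line (CA-AhR) whose aryl hydrocarbon receptor is constitutively active. This receptor, AhR, is a ligand-activated transcription factor best known as the sensor of dioxins. Each array held RNA pooled from 3 females, 5 to 6 weeks old, and each of the 4 groups of genotype and tissue had 1 array. The mice ate standard rodent chow. Strain and the promoter that drives the transgene are not named in the labels. Cyp1a1, an enzyme gene induced through AhR, had a signal of 1403.5 in wild-type and 47625.8 in transgenic liver. The duodenum pools gave 2109.5 and 20795.8. It was thus higher in the transgenic pool of each tissue, the direction that the labels imply. Ahr itself had 2019.8 and 2274 in liver and 2123.3 and 590.2 in duodenum on its brighter probe set, which may lie outside the transgene. Its dimmer probe set rose from 324.1 to 860 between the wild-type and transgenic liver pools. For the duodenum pools it fell from 507.9 to 287.7. Both Ahr probe sets were thus lower in the transgenic duodenum pool, while in liver the dimmer one alone was clearly higher. Where either lies relative to the transgene was not tested.

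Serpins fold around an exposed reactive loop that a target protease cuts, after which the inhibitor traps the enzyme in a dead complex. Hepatocytes secrete most of the plasma serpins, among them the inhibitors of elastase, thrombin, plasmin and the C1 proteases. Clade B serpins have no classical secretion signal and mostly act inside cells, where they neutralise granule and lysosomal proteases. Several members inhibit nothing: some carry hormones in plasma, and Serpinh1 is a chaperone for procollagen in the endoplasmic reticulum.

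Values are MAS5 signals per probe set on a linear scale, and a gene with several is read from the one that is brightest on average on a log2 scale. Signals below a floor of 129.3, the mean over arrays of the 40th percentile, were raised to it. Where 1 of the arrays compared was at the floor the fold is a lower bound, given as at least that fold. Higher and lower in a count mean 2-fold or more. A bound under 2-fold is not counted and leaves the size of that difference unknown. With 1 array per group no value has a replicate error, so that no difference carries a test and all describe these pools only. In pooled tissue, fewer cells of a type and less RNA per cell cannot be told apart. Signals of different probe sets are not on 1 scale, so serpin genes were not ranked by them. Where the signals of a marker list are summed, the sum mixes probe sets and is led by the brightest. All 12 hepatocyte markers were above the floor on both liver arrays, and all 10 measured enterocyte markers were above it on both duodenum arrays. The median signal over all probe sets was 176.5 in wild-type and 177.2 in transgenic liver, against 229.3 and 167.7 for the duodenum pools. Dim probe sets were therefore lower in transgenic duodenum as a whole. RNA integrity, read as the 3′/5′ ratio of Gapdh, differed too, at 0.608, 0.719, 1.03 and 3.07 in the same order.

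Of the 40 genes, 34 had a signal above the floor on at least 1 array and 10 on all 4. Below it on every array were Serpina1f, Serpina5 (the protein C inhibitor), Serpinb1b, Serpinb2 (plasminogen activator inhibitor 2), Serpinb9d and Serpinb12. The other members of the Serpina3 group than Serpina3a, Serpina3i and Serpina3n were not analysed here.

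**Figure D1:**
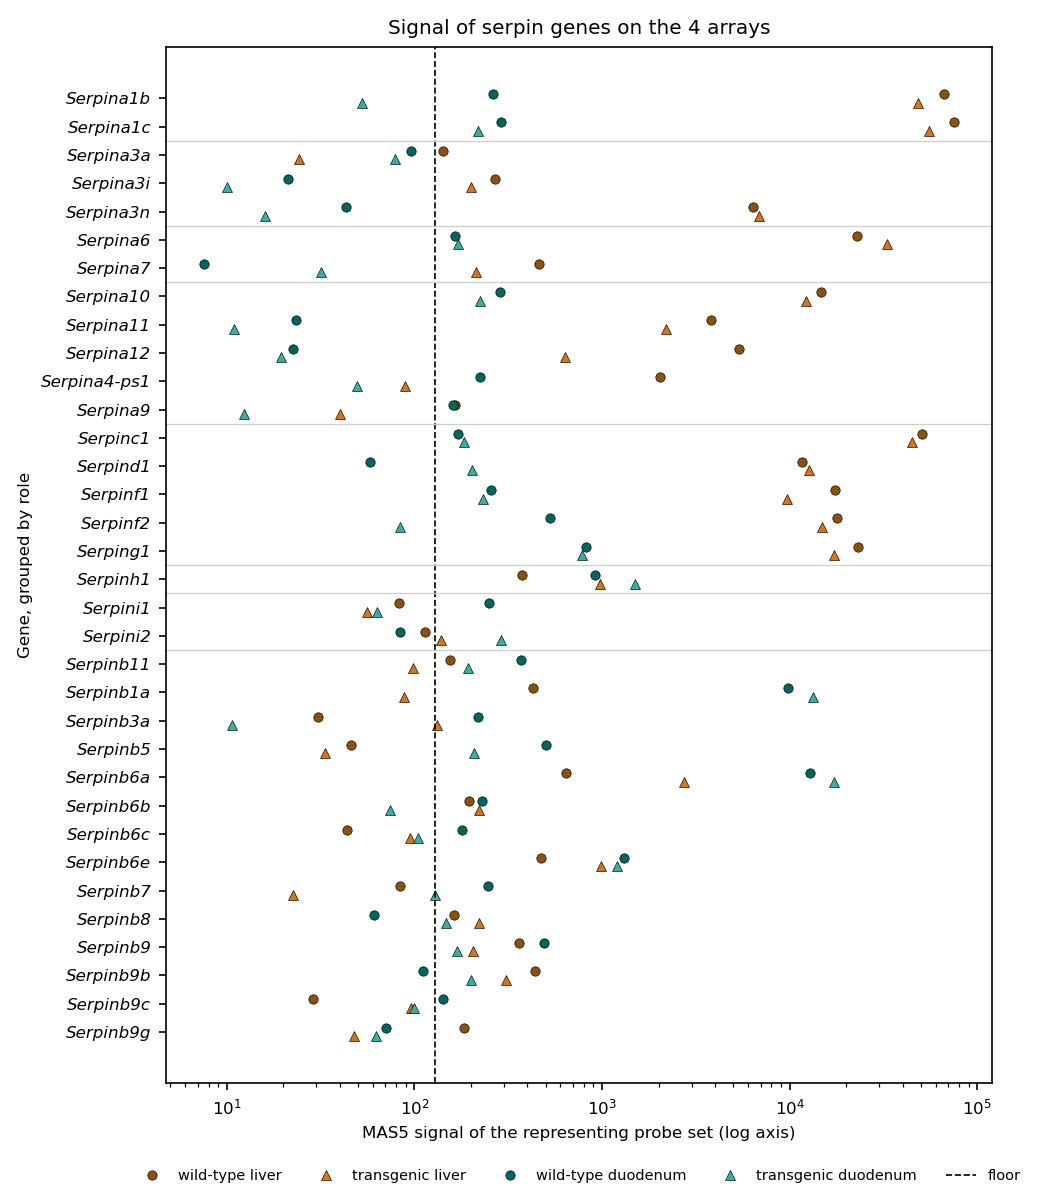
MAS5 signal (log axis) of the 34 serpin genes above the floor on any array, grouped by role, with circles for wild-type and triangles for transgenic pools, 1 array each; the dashed line is the floor of 129.3. Most clade A genes and the coagulation and complement inhibitors lie further right in liver, Serpina9 and Serpina3a lie near the floor, and Serpinb1a and Serpinb6a lie further right in duodenum; positions of different genes are not comparable.

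The tissues were compared first in the wild type, to sort the members by where they are expressed. Of the 33 serpins above the floor in either tissue, 16 were higher in liver (13.6% of all genes were) and 6 were higher in duodenum (18.5% of all genes were). The median log2 ratio of liver over duodenum was 0.50 for the serpins and -0.18 for all genes. The split followed the clades: 10 of the 12 clade A genes were higher in liver and 0 in duodenum, as were all 5 genes of the coagulation, fibrinolysis and complement group, while 5 of 14 clade B genes were higher in duodenum and 1 in liver.

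Serpinc1, antithrombin, had a signal of 50568.7 in wild-type liver and 171.1 in wild-type duodenum, a 296-fold difference. This inhibitor of thrombin and factor Xa had the largest tissue difference with 1 probe set read per gene; the second probe set of Serpina1b gave 335-fold. Serpina1c, a copy of alpha-1-antitrypsin, had 75366.1 and 288.1 (262-fold), and Serpina6, corticosteroid-binding globulin, had 22784.8 and 165.3 (138-fold). Serpind1, heparin cofactor II and a thrombin inhibitor, was at least 90.3-fold higher in liver. Serpina1b was 254-fold higher in liver.

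The non-inhibitory Serpinf1, with 17385.7 and 256.3, was 67.8-fold higher, and Serpinf2, with 17918.8 and 530.5, was 33.8-fold higher. Within clade A, Serpina10 was 51.4-fold, Serpina3n at least 49.4-fold, Serpina12 at least 41.8-fold, Serpina11 at least 29.5-fold and Serpina4-ps1 9.15-fold higher in liver. The dim genes Serpina7 and Serpina3i were at least 3.55-fold and at least 2.07-fold higher, both bounds. Serpina3a and Serpina9, near the floor in both tissues, were the clade A genes without a call. Serping1, the C1 inhibitor, was the member of its group with the smallest difference, at 23232.6 and 822.8 (28.2-fold).

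Of the 14 clade B genes 8 were on neither side, and those higher in duodenum were led by Serpinb1a and Serpinb6a. The values of Serpinb5, Serpinb6a and Serpinb6e rest on probe sets that can cross-bind. Serpinb1a, an inhibitor of neutrophil elastase and cathepsin G, had 429.2 in liver and 9782.5 in duodenum, 22.8-fold higher in duodenum. A second probe set of Serpinb1a, with 142.8 and 4264.7, pointed the same way. Serpinb6a, an inhibitor of cathepsin G and of trypsin-like enzymes, had 642.5 and 12774.6 (19.9-fold). Serpinb5 (maspin) was at least 3.91-fold, Serpinb6e 2.78-fold, Serpinb11 2.39-fold and, outside clade B, Serpinh1 2.45-fold higher in duodenum. Serpinb11, near the floor in liver at 154.4, kept its call in 3 of 7 alternative settings of floor, summary and scaling. Serpinb5 kept its call in 4 of 5 and Serpinh1 in 5 of 6. Serpinb9b, a copy of the granzyme inhibitor genes, was the clade B member on the liver side, at least 3.40-fold higher there.

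The transgenic pools gave a second reading of the tissue difference that shares no array with the first. Of 26 serpins above the floor there, 12 were higher in liver (15.9% of all genes were) and 3 in duodenum (17.5%). Among the 25 genes with a value in both genotypes, 12 were on the liver side in both, Serpinb1a and Serpinb6a were on the duodenal side in both, and 0 had opposed calls. Over these 25 genes the log2 ratios correlated at r = 0.96, across genes and not replicates. Serpina12 lay furthest below the line of equal ratios: at least 41.8-fold higher in liver than duodenum in the wild type, at least 4.91-fold in the transgenic pools. Serpinb6a was 19.9-fold higher in duodenum in the wild type and 6.34-fold in the transgenic pools, and Serpinb1a 22.8-fold and at least 103-fold. Serpina4-ps1, on the liver side in the wild type, was below the floor on both transgenic arrays.

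**Figure D2:**
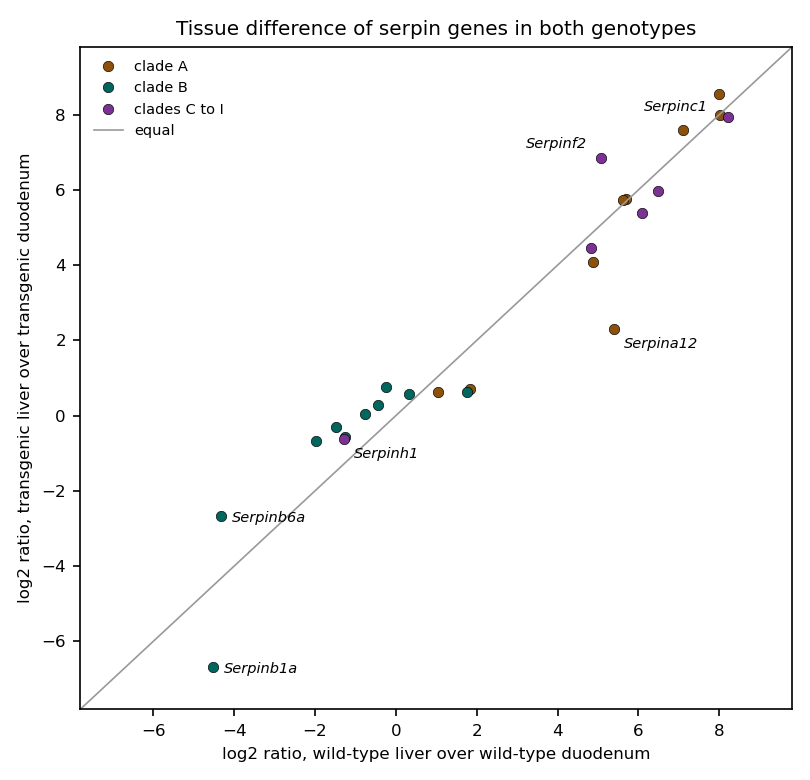
Log2 ratio of liver over duodenum for the 25 serpin genes with a value in both genotypes, wild-type pools on the horizontal and transgenic pools on the vertical axis, 1 array per pool; values with 1 array at the floor are bounds. Points lie near the line of equal ratios (r = 0.96), with Serpina12 below it at 2.30 against 5.38 and Serpinb1a at -6.68 against -4.51.

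In liver, the transgenic and wild-type pools were compared to ask which serpins differed when AhR was constitutively active. Of 29 serpins above the floor, 3 were higher in transgenic liver (4.72% of all genes were) and 4 were lower (3.6% of all genes were). At the background shares about 1 gene would be on each side. The higher ones were Serpinb6a, Serpinh1 and Serpinb6e, and the lower ones Serpina4-ps1, Serpina12, Serpinb1a and Serpina7. The median log2 ratio was -0.27 for the serpins and 0.01 for all genes. The 12 hepatocyte markers had a median of -0.38, with 10 below 0 and 2 above, so a lower median was not particular to serpins. Under quantile normalization and under loess the serpin median was -0.13. It turned to 0.25 when the arrays were scaled to spiked hybridization controls. That scaling moved the median of all genes to 0.66, so relative to it the serpins again lay lower. It also moved the share of all genes higher and lower to 24.8% and 1.00%, with 5 serpins higher and 3 lower.

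**Figure D3:**
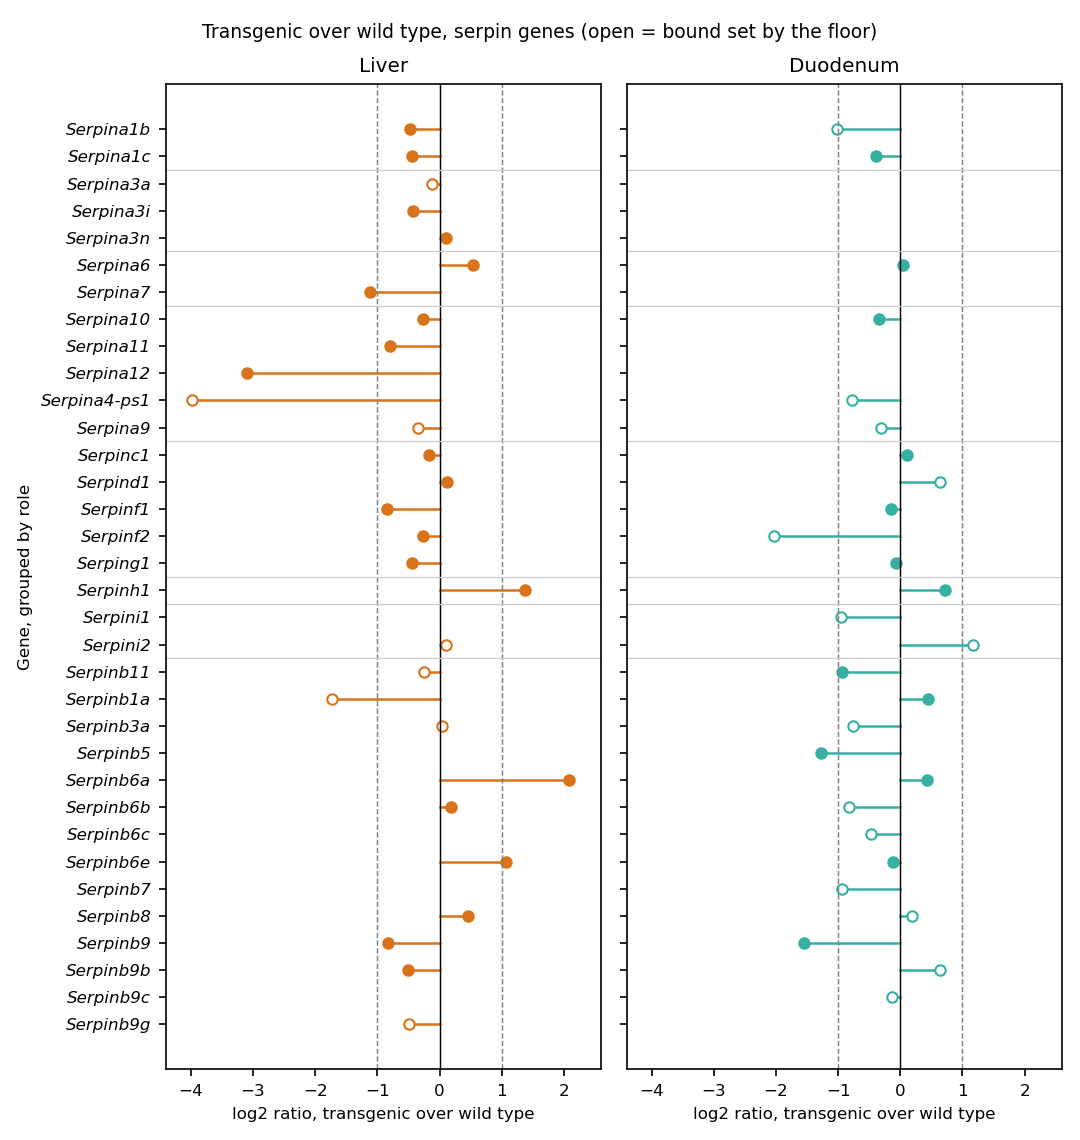
Log2 ratio of transgenic over wild type for each serpin gene in liver (left) and duodenum (right), grouped by role, with dashed lines at 2-fold; open circles are bounds set by the floor, and genes below it on both arrays of a tissue have no point. In liver Serpina12 and Serpina4-ps1 lie furthest down and Serpinb6a furthest up; in duodenum Serpinf2 lies furthest down, as a bound.

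The largest differences belonged to a pair of neighbours in the clade A cluster. Serpina12 encodes vaspin, a secreted inhibitor of kallikrein 7 described as an insulin-sensitising adipokine. Its signal was 5402.1 in wild-type and 634.7 in transgenic liver, 8.51-fold lower, and 22.5 and 19.5 in duodenum, below the floor. The other probe set of Serpina12 was below the floor on all 4 arrays, and averaging both gave a log2 ratio of -0.60, under the 2-fold line. Serpina4-ps1, a transcribed pseudogene related to the kallikrein inhibitor kallistatin, had 2036.9 in wild-type and 89 in transgenic liver, at least 15.8-fold lower. Its 3 probe sets pointed the same way, with log2 ratios from -3.98 to -2.95, all bounds. Transgenic liver was below the floor on each of them, at 89, 20.2 and 9.9. The probe set read for this gene ends in _a_at and can bind related transcripts. The only one without such an ending gave at least 7.84-fold lower.

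In the RefSeq gene order these genes follow each other, with 0 protein-coding genes and 1 non-coding gene, Gm31271, between them. The clade A cluster holds 28 genes in that order, of which 13 had a value here and 11 were above the floor in liver. Of the 11, 2 were lower (3.6% of all genes were) and 0 higher (4.72% of all genes were) at 2-fold, and 9 had a log2 ratio below 0. The last count depends on the scaling. On the hybridization control scale Serpina10, Serpina1b, Serpina1c and Serpina3i were above 0, while Serpina11, Serpina9 and Serpina3a stayed below it with the neighbouring pair. Next to Serpina12 lie Serpina9 and then Serpina11. Serpina9, expressed in germinal-centre B cells, had 165.4 and 40 (at least 1.28-fold lower), near the floor. Serpina11, a little-studied hepatic member, had 3810.9 and 2190.4, 1.74-fold lower. Serpina5, next on the other side, was below the floor on both liver arrays. Without a floor the log2 ratio of Serpina9 was -2.05, so its own difference is not settled by the bound.

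**Figure D4:**
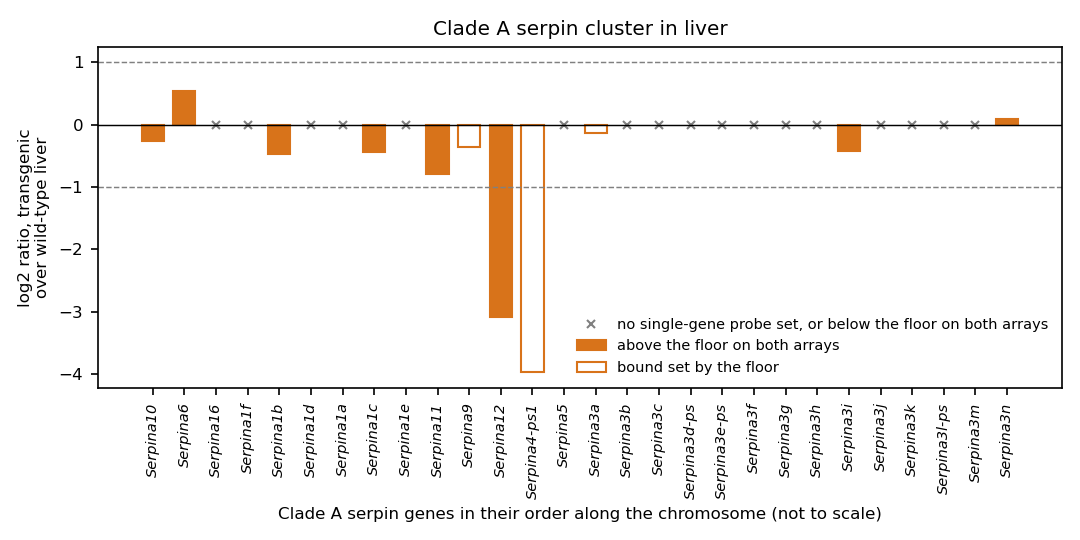
Log2 ratio of transgenic over wild-type liver for the clade A serpins in their order along the chromosome (order only, not to scale), 1 array per pool, with dashed lines at 2-fold; open bars are bounds and crosses mark genes without a value. The adjacent Serpina12 and Serpina4-ps1 stand at -3.09 and -3.98, and the 9 other genes with a bar lie between -0.80 and 0.54.

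Because AhR binds DNA at xenobiotic response elements, the 250 bases upstream of RefSeq starts (GRCm38.p6) were searched for their core, GCGTG, on both strands. The core occurred in 28.2% of 32851 such windows of all genes. Of the 40 serpin genes 34 had a window and 6 held the core. Among the 12 members past 2-fold in either tissue, 10 had a window and 3 held the core: Serpina12, Serpinb6a and Serpinf2. These are shown because they carry the letters and include the largest differences with a window; the window of Serpinh1 is shown as a member past 2-fold without them. Capitals mark the core, read on the other strand as CACGC in Serpinb6a. It lay 42 to 38 bases upstream of the start of Serpina12 (chr12:104044444-104044693, minus strand), 23 to 19 bases upstream in Serpinf2 (chr11:75439502-75439751, minus strand) and 10 to 6 bases upstream in Serpinb6a (chr13:34002795-34003044, minus strand). The other listed start of Serpinb6a, and the window of Serpinh1 (chr7:99353240-99353489, minus strand), held no match. A match is a string of letters and not a shown binding site.
Serpina12: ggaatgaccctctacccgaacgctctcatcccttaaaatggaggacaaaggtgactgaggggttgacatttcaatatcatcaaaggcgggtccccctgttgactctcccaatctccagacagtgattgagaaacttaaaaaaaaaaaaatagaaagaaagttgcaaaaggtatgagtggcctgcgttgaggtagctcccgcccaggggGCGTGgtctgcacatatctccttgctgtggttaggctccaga
Serpinf2: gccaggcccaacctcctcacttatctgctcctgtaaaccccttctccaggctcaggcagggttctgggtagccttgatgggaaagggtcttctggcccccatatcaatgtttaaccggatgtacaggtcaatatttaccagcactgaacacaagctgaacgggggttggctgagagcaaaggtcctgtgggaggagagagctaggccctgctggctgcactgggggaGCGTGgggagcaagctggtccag
Serpinb6a: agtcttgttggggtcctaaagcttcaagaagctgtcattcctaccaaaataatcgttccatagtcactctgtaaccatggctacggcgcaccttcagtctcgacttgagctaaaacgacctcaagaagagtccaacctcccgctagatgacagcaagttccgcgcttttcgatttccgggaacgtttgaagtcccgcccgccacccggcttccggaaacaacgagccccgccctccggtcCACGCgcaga
Serpinh1: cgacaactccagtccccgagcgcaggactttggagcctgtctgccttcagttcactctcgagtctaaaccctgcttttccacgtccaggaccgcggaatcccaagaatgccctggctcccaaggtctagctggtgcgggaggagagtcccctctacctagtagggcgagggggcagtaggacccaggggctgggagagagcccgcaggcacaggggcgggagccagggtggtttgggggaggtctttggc

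The window of Serpinb6a also held TTCNNNGAA, the palindrome bound by STAT5, the factor through which growth hormone acts in liver. That string was present in 7.02% of all windows, in 6 of the 34 serpin genes with a window and in 1 of the 10 called members with one. The other 5 genes were Serpina11, Serpina1f, Serpina3i, Serpinb2 and Serpinb9c.

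The alpha-1-antitrypsin copies, which inhibit neutrophil elastase in plasma and lung, differed little in liver. Serpina1c had 75366.1 in wild-type and 55497.1 in transgenic liver (1.36-fold lower), and Serpina1b had 66933.3 and 48241.5 (1.39-fold lower). A second probe set of Serpina1b gave 64827 and 50529.4. The probe sets shared by several copies gave 42564.9 and 31097.7, and 4507.6 and 3171.2. All 5 thus lay between log2 ratios of -0.51 and -0.36 and under the 2-fold line. Copies of this group are near-identical, and 4 of the 5 probe sets carry the _x_at ending, so the readings are not independent. For Serpina1b and Serpina1c the median log2 ratio was -0.46, -0.09 under quantile normalization, -0.11 under loess and 0.23 on the spiked control scale.

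In the Serpina3 group, relatives of alpha-1-antichymotrypsin, 0 of 3 measured genes were counted in liver. Serpina3n, an acute phase gene and inhibitor of granzyme B and leukocyte elastase, had 6393.1 and 6831.3 (1.07-fold higher). Serpina3i had 267.2 and 198.9, and Serpina3a had 141.2 and 24.3 (at least 1.09-fold lower). Other acute phase genes did not share 1 direction: of 20, 4 were higher, among them Saa1 (2.98-fold) and Saa3 (2.40-fold), and 3 were lower, among them Mt2 (4.11-fold) and Orm3 (3.91-fold).

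The hormone carriers went opposite ways in liver. Serpina7, thyroxine-binding globulin, had 459.4 in wild-type and 211.7 in transgenic liver, 2.17-fold lower. Serpina6, corticosteroid-binding globulin, had 22784.8 and 33210.7, 1.46-fold higher and the largest increase among clade A genes, though short of 2-fold. On the spiked control scale Serpina6 passed 2-fold (log2 ratio 1.23). There Serpina7 was no longer past 2-fold (log2 ratio -0.43), nor was it when the 60th percentile set the floor (-0.79).

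The inhibitors of coagulation, fibrinolysis and complement, with Serpinf1, were within 2-fold in liver in 5 of 5 cases. Their median log2 ratio was -0.27, -0.08 under quantile normalization, -0.07 under loess and 0.42 on the spiked control scale. Serpinf1, pigment epithelium-derived factor, an anti-angiogenic member that inhibits no protease, had 17385.7 and 9670.8 (1.80-fold lower). Its second probe set had 10287.5 and 6332.5, in the same direction. Serpinf2, the plasmin inhibitor alpha-2-antiplasmin, had 17918.8 and 14900, Serping1 had 23232.6 and 17153.5, and Serpinc1 had 50568.7 and 45136.8. Serpind1 had 11669.7 and 12646.8. Serpina10, which blocks factor Xa together with protein Z, had 14651.3 and 12227.2. In the last 5 genes the pools were between 1.08-fold and 1.35-fold apart. The proteases of these cascades were likewise mostly within 2-fold: of 23, 2 were higher and 0 lower. The 2 were Htra1, a secreted serine protease (at least 17.4-fold), and St14, the epithelial protease matriptase (2.43-fold), neither of which belongs to the plasma cascades proper. Of 11 cofactors and clearance receptors, such as vitronectin and Lrp1, 0 were higher and 0 lower.

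Serpinh1, the collagen chaperone also called HSP47, was higher on both of its probe sets. The first had 375.1 in wild-type and 973.4 in transgenic liver (a log2 ratio of 1.38), and the second 273.4 and 686.2. Both probe sets carry endings of possible cross-binding. In transgenic liver 5 of 17 genes of collagen chains and their processing were above 2-fold and 0 below, among them Col3a1 (970.7 and 5719, 5.89-fold) and Pcolce, an enhancer of procollagen cleavage (191.6 and 1024.5, 5.35-fold). With Serpinh1, 10 of 12 markers of fibroblasts and stellate cells were higher there and 0 were lower. Their summed signal was 11355.5 in wild-type and 31780.4 in transgenic liver. All 12 were above the floor on both arrays. Their part in the Serpinh1 value was not tested.

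Within clade B, 10 genes were above the floor in liver, and 2 were higher and 1 lower. Serpinb6a had 642.5 in wild-type and 2725.7 in transgenic liver, 4.24-fold higher and the largest increase of any serpin. Serpinb6e, a copy in the same cluster, had 471.1 and 985.6 (2.09-fold higher) on a probe set that may bind related copies. Serpinb6b, the remaining copy above the floor, had 194.2 and 220.2. Serpinb1a went the other way, from 429.2 to 87.9, at least 3.32-fold lower. Its second probe set gave 142.8 and 85.8, at least 1.10-fold lower, the mean of both gave a log2 ratio of -0.94, and the floor at the 60th percentile -0.69, so the call depended on both choices. Serpinb9, the inhibitor of granzyme B that protects lymphocytes from their own granules, had 361.1 and 204 (1.77-fold lower). Its copy Serpinb9b, with 439.8 and 309.3, was 1.42-fold lower, and Serpinb9g, with 182.6 and 47.4, was at least 1.41-fold lower.

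Serpinb6a and Serpinb1a were both on the duodenal side in the wild type, yet differed in opposite directions in transgenic liver. Of 9 enterocyte markers 3 were higher there and 0 lower. Their summed signal was 21836.5 in wild-type and 33859.3 in transgenic liver. Most of both sums came from Apoa4 (14972.9 and 22187.3) and Fabp2 (5209.3 and 9029), neither of which passed 2-fold. Of 10 enterocyte markers, 6 were above the floor in wild-type and 9 in transgenic liver. Vil1, Lct and Slc15a1 lay below it in wild-type liver alone, and Cdh17 on both liver arrays. Their part in the Serpinb6a and Serpinb6e values was not tested. Of 6 neutrophil markers in liver, Elane (the elastase that Serpinb1a inhibits) among them, 0 were past 2-fold in either direction.

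All 3 serpins that were higher in transgenic liver were read only by probe sets with an _x_at or _a_at ending, so without such probe sets 0 of 22 serpins were higher and 4 were lower. Of the liver calls, Serpina4-ps1, Serpinb6a, Serpinb6e and Serpinh1 held under every alternative scaling, floor and summary in which they had a value.

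Other families of protease inhibitors had 4 of 28 genes higher and 0 lower in transgenic liver. Leading them were Wfdc15b (3.63-fold) and Slpi (2.96-fold), the latter a small secreted inhibitor of leukocyte proteases. Of 19 sex-biased genes under growth hormone, 9 were lower and 3 higher, with Mup3 10.2-fold lower and Prom1 12.7-fold higher. The list mixes male-biased and female-biased genes, so these counts give no direction for either kind.

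In duodenum, the same comparison left 27 serpins above the floor. Of these, 1 was higher in the transgenic pool (8.74% of all genes were) and 4 were lower (11.1% of all genes were). At the background shares about 2 and 3 genes would be there, so these counts are near the background. Serpini2 was the higher one, and Serpinf2, Serpinb9, Serpinb5 and Serpina1b were the lower ones. The median log2 ratio was -0.31 for the serpins and -0.11 for all genes, and -0.02 and 0.04 under quantile normalization. The latter left 1 serpin higher and 2 lower, with 10.6% of all genes higher and 7.56% lower. Raising the floor to the 60th percentile left 12 serpins and 0 calls, and each of the 5 called genes had a signal below or near the floor in 1 of the pools.

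Serpinf2 had 530.5 in wild-type and 84 in transgenic duodenum, at least 4.10-fold lower, against 17918.8 and 14900 in liver. Antiplasmin is a hepatocyte product. Of 11 hepatocyte markers in duodenum, 1 was higher (Ttr, 17.3-fold) and 1 lower (Ass1), and Alb had 216.3 and 299.4. Other genes typical of liver went both ways in duodenum. Lower were Masp1, a protease of the lectin pathway of complement (663 and 100.9, at least 5.13-fold), Itih1 (at least 2.58-fold), Lbp (2.51-fold), Tmprss6 (2.20-fold) and Vtn (at least 2.13-fold). Higher were Hgfac, the activator of hepatocyte growth factor (461.2 and 1766.3, 3.83-fold), Fga (at least 2.51-fold) and Hrg (at least 2.47-fold). Serpina1b had 263.1 and 52.7, at least 2.04-fold lower, and its second probe set gave a log2 ratio of -0.58, a bound as well. Serpina1c had 288.1 and 219, and Serpinc1, Serpina6, Serpinf1 and Serping1 were at most 1.10-fold apart on their brightest probe sets. The second probe set of Serpinf1 had 180 and 51 (at least 1.39-fold lower), and the mean of its probe sets gave a log2 ratio of -0.73.

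Serpinb9 had 492 in wild-type and 168.1 in transgenic duodenum, 2.93-fold lower, and its second probe set had 167.2 and 28.8. Its target Gzmb had 1425.3 and 602.6 in the same pools (2.37-fold lower). Of the other granzymes, Gzma had 5089.1 and 2497.7 (2.04-fold lower) and Gzmk 413.9 and 31.8 (at least 3.20-fold lower). Gzmm went the other way, with 47.7 and 205.3 (at least 1.59-fold higher), and Gzmc was below the floor in both. Of 10 proteases of cytotoxic cells, mast cells and neutrophils, 5 were lower and 1 was higher. Markers of cytotoxic lymphocytes were lower in 3 of 10 cases (Ptprc, Gzmb and Gzma) and higher in 1 (Itgae), with a summed signal of 14589.1 in wild-type and 11332.5 in transgenic duodenum and Cd8b1 below the floor in both. Their part in the Serpinb9 value was not tested.

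Serpini2, known as pancpin and expressed in exocrine pancreas, had 83.8 in wild-type and 289.8 in transgenic duodenum, at least 2.24-fold higher. Its only probe set ends in _s_at and can bind related transcripts. The call was lost with the floor at the 60th percentile (log2 ratio 0.12) and on the hybridization control scale. In the transgenic pool 11 of 12 exocrine pancreas markers were higher and 0 lower. Their summed signal was 68185.4 in wild-type and 182712 in transgenic duodenum, of which Zg16, a goblet cell gene as well, gave 62234.1 and 71041.1. The list had 6 of 12 above the floor in the first and 12 in the second. Ctrb1, Cela2a, Cpa1, Cpb1, Pnliprp1 and Rnase1 were those below the floor in wild-type duodenum. Digestive proteases, which share genes with that list, were past 2-fold upward in 9 of 12 cases, led by Ctrb1 (51.9 and 20057.7, at least 155-fold), and Tmprss15, the enteropeptidase that activates trypsinogen, was 2.90-fold lower. Markers of Brunner glands and stomach were higher as well, in 6 of 7 cases with 0 lower, and their summed signal was 3813.8 in wild-type and 159208 in transgenic duodenum. Among them Tff2, a trefoil peptide of mucus, had 225.8 and 92301.5, and Gkn3 had 431.5 and 55467.7. The part of either set of transcripts in the Serpini2 value was not tested. Serpini1, neuroserpin, an inhibitor of tissue plasminogen activator, had 249.8 and 63 (at least 1.93-fold lower).

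Several clade B genes known in squamous or other epithelia had a low duodenal signal. Serpinb5, maspin, had 505.3 in wild-type and 207.9 in transgenic duodenum (2.43-fold lower), Serpinb11 368.8 and 192.1, Serpinb7, known in keratinocytes, 247.3 and 127.9, and Serpinb3a, a squamous cell carcinoma antigen copy, 218.2 and 10.6 (at least 1.69-fold lower). Serpinb5 was counted, Serpinb11 was 1.92-fold lower, and the folds of Serpinb7 and Serpinb3a are bounds. The other 3 probe sets of Serpinb5 were below the floor on every array. Serpinb8, of the same cluster, went the other way on its brighter probe set, with 60.5 and 147.5 (at least 1.14-fold higher). Its second probe set had 152.6 and 95.7 (at least 1.18-fold lower), so the direction of Serpinb8 is not settled. Squamous epithelium markers passed 2-fold in 2 of 10 cases, both lower (Lor and Krt14), with 10 of 10 log2 ratios below 0 and a summed signal of 3225.6 and 1879.5. Krt13 was below the floor in both pools. In wild-type liver the list summed to 3113.9, and 0 of 10 markers passed 2-fold between the wild-type tissues. The list therefore did not set duodenum apart from liver. The part of any squamous cells was not tested. Nor was that of the dim signals differing between the duodenum arrays, or of the transgenic Gapdh 3′/5′ ratio of 3.07.

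The clade B members with high duodenal signal were close to equal in both pools. Serpinb6a had 12774.6 in wild-type and 17288.2 in transgenic duodenum (1.35-fold higher), Serpinb1a 9782.5 and 13264.6 (1.36-fold higher) and Serpinb6e 1310 and 1206.1. Serpinh1 had 917.4 and 1507.7 (1.64-fold higher), and 575.8 and 647.2 on its second probe set. Here 1 of 16 collagen and collagen-processing genes was higher and 0 lower, and of 12 fibroblast markers 0 were higher and 1 lower. Among genes near the floor in duodenum, Serpind1 had 58.1 and 201.9 (at least 1.56-fold higher), Serpinb9b 111.5 and 201.2 (at least 1.56-fold higher), the furin inhibitor Serpinb8 as given above, Serpinb6b 229.2 and 74.4 (at least 1.77-fold lower), Serpinb6c 179 and 104.6, and Serpinb9c 141.4 and 99.1. Each of these 6 has 1 pool below the floor, so their folds are bounds and none was counted. Without a floor the log2 ratio was 1.80 for Serpind1 and -1.62 for Serpinb6b. For Serpinb8 it was 1.29 on the brighter and -0.67 on the second probe set. The probe set shared by Serpinb9 copies had 225.4, 255.3, 215.6 and 177.6 on the 4 arrays, close to equal.

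Among cathepsins, lysosomal proteases that several clade B serpins can bind, Ctsc, the activator of granule proteases, was 2.09-fold lower in transgenic liver and 2.12-fold lower in transgenic duodenum. It was the single call among 9 cathepsins in each tissue. Other inhibitor families had 4 of 25 genes higher in transgenic duodenum and 2 lower, led by Wfdc18 (28.0-fold) and Wfdc2 (4.89-fold), small secreted proteins of the whey acidic protein type. Serpina4-ps1 had 222.5 in wild-type and 49.6 in transgenic duodenum, at least 1.72-fold lower, and a log2 ratio of -2.17 without a floor, in the same direction as in liver. With the floor, 0 serpins were counted in both tissues. Whether the difference between genotypes differed between tissues was not tested, since each rests on 1 array per pool.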

How the data were processed

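RNA of liver and duodenum was hybridised to Affymetrix Mouse Genome 430 2.0 arrays. The authors deposited a signal intensity, linear, for every probe set, computed with MAS5 according to the submitters' processing notes; its version is not given in the sources used here. Per array the mean without the lowest and highest 2% was 500.0, so each ratio is relative to a global scaling. Depth does not apply to arrays; their number limits the precision.

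Names came from the platform's annotation table, with symbols updated by Entrez identifier from RefSeq (GRCm38.p6), which changed 0 serpin symbols. Of 45101 probe sets, 34958 had 1 symbol, 932 several and 9211 were not listed. Log2 ratios, counts at 2-fold and medians were computed in Python 3.11.15 with pandas 2.3.3 after raising signals to the floor (129.3), and the steps were tested on simulated data. Promoter sequences are those of RefSeq. Every member at 2-fold or more was named, with others above the floor. From each other list at most the 2 highest and 2 lowest past 2-fold were named; further genes, all marker genes among them, were chosen after their values were seen. The members and lists were chosen with earlier results of these data known. Alternatives changed the floor, the probe set summary, the scaling between arrays and the fold. A change of a log2 value by less than 0.58 (1.5-fold), or of a count by less than 1.5 times, was taken as no change, since no replicate spread exists.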

Additional observations from a re-analysis of the deposited data

How the results depend on the processing

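The counts of called serpins depended on the processing. In both tissues 0 called genes reversed, but a change of floor cannot turn a sign, so this count says little about directions. Genes without a call were not scored for reversal. Some of them changed sign in liver on the hybridization control scale, such as Serpina10 (log2 ratio -0.26, then 0.43) and Serpinc1 (-0.16, then 0.52). Others, such as Serpina11 (-0.80, then -0.11), did not. In liver (3 higher, 4 lower) the floor at the 60th percentile and the mean of all probe sets each gave 2 lower. Without a floor there were 9 higher and 9 lower among all 40 genes. Without cross-binding probe sets there were 0 higher, because no other probe set read those 3 genes. Scaling to the hybridization controls gave 5 higher and turned the median log2 ratio to 0.25. A 1.5-fold line gave 7 lower, and a 3-fold line 1 higher.

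In duodenum (1 higher, 4 lower) the floor at the 60th percentile gave 0 and 0, and no floor gave 4 and 13. The mean of probe sets and quantile normalization each gave 2 lower, and omission of cross-binding probe sets gave 0 higher and 2 lower. Hybridization control scaling gave 0 higher. The 1.5-fold line gave 4 and 10, and the 3-fold line 0 and 1. Between tissues (16 on the liver side, 6 on the duodenal side, median 0.50), the higher floor moved the median to 3.84 and omission of cross-binding probe sets moved it to 1.77 with 2 on the duodenal side. On the hybridization control scale the shares of all genes on the liver and duodenal sides were 21.6% and 10.5%, with 16 and 4 serpins. The duodenal side had 15 without a floor, 3 at 3-fold and 3 in the transgenic pools, the last comparison chosen after seeing the data. The causes were not tested where no construction is named. Loess changed none of these counts by over 1.5 times.

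Leaving out a replicate was not run, since each group held 1 array. No paired analysis was possible because each group held 1 pool.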
